A study of Mus musculus with 35 samples.

Results

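Stable clones labelled WT(N48) were compared with stable clones labelled WT, 3 of each, making up 6 of the 35 RNA-seq libraries of the series. They were grouped by their labels, and were chosen with earlier results of these data known. All 6 were derived from immortalized mouse embryonic fibroblasts (MEFs) of genotype Nelfb flox/-, in which 1 Nelfb allele is floxed and the other is already deleted. The cells were given a wild-type NELFB transgene and then Ad-Cre, an adenovirus that carries the Cre recombinase and removes the floxed allele, and a clone was isolated for each library, so each library is 1 clonal line and no group samples the parental population. The WT clones carried pLenti-WT-NELFB and the WT(N48) clones pBabe-WT-ATG-NELFB. What N48 stands for is not given in the sources used here, and the study's methods describe a tagged NELFB in a lentiviral vector only, so vector, construct and clone cannot be told apart in this comparison. The clone numbers name clones and do not pair them. The other 9 stable clones, 3 each with pLenti-MT194, pLenti-MT486 and pBabe-delta-C60 (labelled Δ-C60), share the allele and Ad-Cre and helped to estimate the spread between clones. Populations with an empty vector (EV) or WT NELFB that received Ad-Cre or the control virus Ad-GFP, 2 libraries in each group, were used for levels only.

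Each file gave reads on 24421 genes. The reads on genes numbered 18413284, 23603226 and 18695572 in the libraries labelled WT, clones 1 to 3, and 21092518, 20296206 and 27816723 in the WT(N48) clones. Values are CPM, counts scaled to the reads on genes of each library after TMM normalization over the 15 clones, always given in the order of clones 1 to 3. The labelled cell type was checked against marker genes. Of 16 fibroblast markers, 14 passed the filter on low counts, and their summed level was 14908, 12549 and 9494 CPM in the libraries labelled WT and 28861, 24051 and 20034 CPM in WT(N48), with Fn1, the gene of fibronectin, at the highest CPM. Thy1 and Fap, which mark many fibroblasts, were at or near 0 in all 6 clones. The summed CPM of 14 epithelial markers lay between 8.81 and 30.5, with Krt19 the highest and Krt8, Cldn3 and Cldn4 at 0. Markers of macrophages and other blood cells summed to 2.33 to 7.05 CPM, with Csf1r the highest and Cd3e at 0, and those of endothelial cells to 3.25 to 8.92 CPM, with Egfl7 the highest and 5 of 14 at 0.

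NELF, the negative elongation factor, is a complex of NELF-A, NELF-B, NELF-C/D and NELF-E. Together with DSIF it holds RNA polymerase II in a pause shortly after transcription starts, until the kinase P-TEFb releases the polymerase. NELFB, also known as COBRA1 for its binding to BRCA1, is a core subunit on which the stability of the others depends, and its loss in fibroblasts is known to impair growth. Nelfb RNA in each clone was therefore examined first.

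Nelfb, on chromosome 2 from 25199712 to 25211489 of mm10 on the minus strand, had 200, 2637 and 306 reads in the libraries labelled WT, or 10.3, 109 and 15.5 CPM. In the WT(N48) clones it had 4758, 2547 and 1606 reads, or 241, 127 and 56.3 CPM. The libraries labelled WT clone 1 and clone 3 stood far below WT clone 2 and below every other clone of the series, whereas WT clone 2 lay between WT(N48) clones 2 and 3. The groups therefore overlapped. The log2 fold change of WT(N48) over WT was 1.65 (SE 0.717) with an adjusted p of 0.211 by edgeR's quasi-likelihood test, and of 0.0752 by DESeq2. Without WT clone 2 it was 3.43 with an adjusted p of 0.0157 by edgeR, and without WT clones 1 and 3 it was 0.35 with an adjusted p of 0.899, a fit in which the lone WT library is assumed to vary like the other groups. The other clones had 189, 216 and 147 CPM with MT194, 180.3, 158 and 135 CPM with MT486 and 247, 208 and 218 CPM with Δ-C60.

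On a joint scale over all libraries, normalized together by TMM, Nelfb had 8.19 and 5.68 CPM in the EV populations after Ad-Cre and 47.7 and 41.4 CPM in those with Ad-GFP. The libraries labelled WT had 10.0, 107 and 15.02 CPM on that scale. WT clones 1 and 3 thus lay above the EV populations after Ad-Cre and below those with Ad-GFP, and WT clone 2 was above both WT populations with Ad-GFP, at 100.4 and 86.3 CPM. Counts on the gene do not separate transgene from endogenous RNA. Since Nelfb goes against the label in 2 of the 3 WT libraries, they are called libraries labelled WT, and values without WT clones 1 and 3 are given for the main lists, genes and chromosomes that follow. In that fit 3.92% of all genes were higher and 4.16% lower at an unadjusted p under 0.05.

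**Figure D1:**
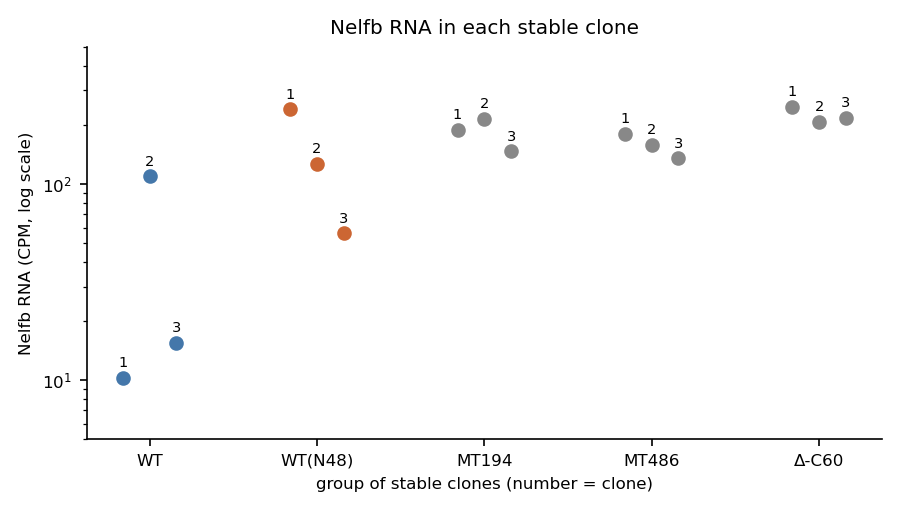
Nelfb RNA in each of the 15 stable clones as CPM on a log axis, 1 point per clone with its clone number. The libraries labelled WT clone 1 and 3, at 10.3 and 15.5 CPM, lie below all 13 other clones, and the 3 WT(N48) clones lie between 56.3 and 241 CPM.

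The genes of the other NELF subunits did not pass the test. Nelfa, which links NELF to the polymerase, had 61.6, 78.5 and 63.9 CPM in the libraries labelled WT and 67.5, 64.7 and 67.5 CPM in the WT(N48) clones. For Nelfcd the values were 80.0, 87.2 and 67.5 against 55.5, 51.8 and 65.4 CPM, and for Nelfe, whose product binds nascent RNA, 67.2, 87.7 and 67.6 against 54.7, 59.9 and 69.2 CPM. The log2 fold changes were -0.03, -0.44 and -0.28, with adjusted p-values of 0.949, 0.260 and 0.388 by edgeR. Hexim1, an inhibitor of P-TEFb, had 121, 107 and 108 against 55.3, 71.0 and 80.6 CPM, and all 3 WT(N48) clones were below all 3 libraries labelled WT, with an adjusted p of 0.0925. None of the 16 genes for NELF, DSIF, P-TEFb and their partners was called by edgeR or DESeq2, and 2 (12.5%) were higher and 1 (6.25%) lower at an unadjusted p under 0.05, beside 10.7% and 10.3% of all genes. Of the genes the study names for its clones, Actb had a log2 fold change of 0.36, Fasn of 0.02 and Cdkn1a of 0.65, with adjusted p-values of 0.529, 0.970 and 0.648. For Fasn, the fatty acid synthase gene, the sign changed with scaling by library totals.

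Across the genome 13223 genes were tested, and 1.47% of them were called at an adjusted p under 0.05 with an absolute log2 fold change over 1. WT(N48) was higher for 124 (0.938%) and lower for 70 (0.529%). The fold was over 4, a log2 of 2, for 63 of the higher and 28 of the lower genes. By DESeq2 on the same 15 clones 649 genes (4.91%) were called, 381 (2.88%) higher and 268 (2.03%) lower, and they included 192 of the genes that edgeR called. At an unadjusted p under 0.05 edgeR listed 2775 genes (21.0%), 1410 higher (10.7%) and 1365 lower (10.3%). In all genes called by edgeR the CPM of the 3 WT(N48) clones did not overlap with those of the libraries labelled WT, which was also so for 32.0% of all genes tested. With library totals in place of TMM the calls were 118 higher and 122 lower, and the median log2 fold change of all genes moved from 0.01 to -0.07.

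The number of calls rested on single libraries. It was 12 without WT clone 1, 77 without WT clone 2 and 10 without WT clone 3, and 25, 27 and 446 without WT(N48) clones 1, 2 and 3. With WT clones 1 and 3 left out together, 2 genes were called, Gja4, a gap junction gene, and Btbd11, which is not called with all libraries and is named here after its values were seen. Leaving out MT486 clone 2, which was nearly the same library as MT486 clone 1 (r = 0.998, yet apart beyond sampling noise), gave 73. That library is in neither group compared, but it enters the filter, the scaling and the estimate of the spread. Without it 13485 genes were tested. No called gene changed sign in any of these fits. Of the genes, 9 were called in each of the 6 fits without 1 library, among them Agbl2, Ednra, Elovl4, Gja4, Hmgcs1, Sqle, Tgfa and Tinagl1.

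The clones of a group were not equally alike. Over genes, as a description, log2(CPM + 1) correlated at r = 0.988 between WT clones 1 and 3, which differed over 4-fold in 29 genes, and at 0.974 and 0.976 between each of them and WT clone 2. WT(N48) clones 1 and 2 correlated at 0.985, and clone 3 with them at 0.946 and 0.955, with 438 and 306 genes over 4-fold apart. Between the groups the values were 0.931 to 0.958. WT(N48) clone 3 was thus as far from its own group as from the libraries labelled WT.

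**Figure D2:**
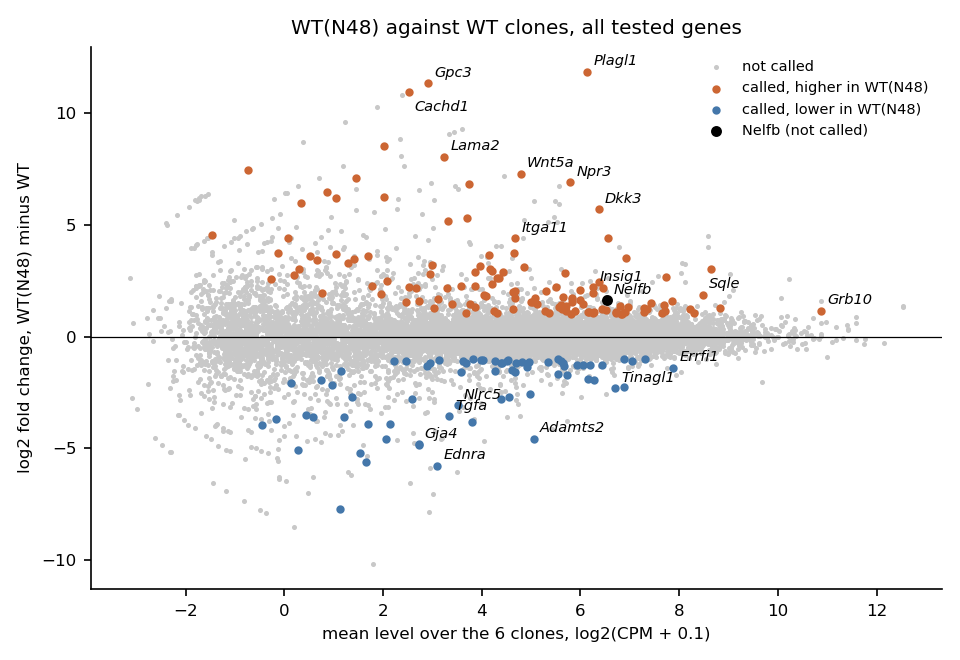
Log2 fold change of WT(N48) over WT for each of the 13223 tested genes against its mean level over the 6 clones in log2 CPM. The 124 called higher genes (orange) and 70 called lower genes (blue) stand out from the genes not called (grey), and Nelfb (black, log2 fold change 1.65) is not called.

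Genes of cholesterol synthesis were the list with the most calls. Cells make cholesterol through the mevalonate pathway, whose genes are switched on together by the transcription factor SREBP-2 when sterol in the endoplasmic reticulum is low. Of 25 genes of this list, all tested, 10 were called higher in WT(N48) and 0 lower by edgeR, beside 0.938% higher among all genes. DESeq2 called 14 (56%) higher and 0 lower, beside 2.88% and 2.03% of all genes. At an unadjusted p under 0.05, 20 (80%) were higher and 0 lower, beside 10.7% and 10.3% of all genes. The median log2 fold change was 1.11, beside 0.01 over all genes. For 19 of the 25, all WT(N48) clones were above all libraries labelled WT, beside 16.1% of all genes.

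Sqle, which encodes squalene epoxidase, a rate-controlling enzyme, lies on chromosome 15 from 59315077 to 59331192. It had 167, 153 and 138 CPM in the libraries labelled WT and 521, 591 and 575 CPM in the WT(N48) clones. Its log2 fold change was 1.88 (SE 0.206, adjusted p = 0.00275, edgeR). The 3 WT(N48) clones differed among themselves by far less than from the libraries labelled WT, WT clone 2 with its high Nelfb included. Hmgcs1, on chromosome 13 from 119690379 to 119708260, encodes an early synthase of the mevalonate pathway and had 137, 89.9 and 119.7 CPM in the libraries labelled WT and 299.8, 325 and 408 CPM in the WT(N48) clones. Its log2 fold change was 1.57 (SE 0.204, adjusted p = 0.00612, edgeR).

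Further along the pathway, Mvk (mevalonate kinase), Idi1 (isopentenyl diphosphate isomerase) and Fdps (farnesyl diphosphate synthase) were called. Mvk had 28.7, 32.0 and 27.1 against 60.5, 58.0 and 107 CPM, Idi1 3.25, 1.91 and 3.20 against 8.06, 8.34 and 7.78 CPM, and Fdps 24.0, 19.6 and 23.5 against 63.0, 73.0 and 96.8 CPM. In the sterol branch, Lss (lanosterol synthase) had 31.2, 27.0 and 35.5 against 80.8, 80.8 and 199 CPM and Hsd17b7, a sterol reductase, 38.9, 24.2 and 29.2 against 95.3, 86.1 and 107 CPM. WT(N48) clone 3 was the highest clone for Mvk, Fdps, Lss and Hsd17b7. The log2 fold changes of these 5 genes lay between 1.36 for Mvk and 1.95 for Lss.

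Insig1, called as well, which holds the SREBP precursor back in the endoplasmic reticulum and is itself an SREBP target, had 28.5, 25.9 and 27.4 CPM in the libraries labelled WT and 97.8, 112 and 168 CPM in the WT(N48) clones, a log2 fold change of 2.21 (SE 0.305, adjusted p = 0.00880). Srebf2, which encodes SREBP-2, had 302, 368 and 315 against 719, 653 and 568 CPM, a log2 fold change of 0.98 with an adjusted p of 0.0294, under the fold threshold. Ebp, a sterol isomerase, had a log2 fold change of -0.27, did not pass the test and changed sign without WT clones 1 and 3. Msmo1, Cyp51, Nsdhl and Stard4 were called by DESeq2 and not by edgeR, with edgeR adjusted p-values of 0.0987, 0.0524, 0.104 and 0.0807.

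The count of calls was 3, 6 and 3 without WT clones 1, 2 and 3, and 6, 7 and 9 without WT(N48) clones 1, 2 and 3. Sqle and Hmgcs1 were called in all 6 of these fits. The calls of Insig1, Fdps and Lss were lost without WT clone 1 or 3, that of Hsd17b7 also without WT clone 2 or WT(N48) clone 1, that of Idi1 without any 1 library but WT(N48) clone 3, and that of Mvk without any 1 library. With WT clones 1 and 3 left out together, edgeR called 0 of the 25, 17 were higher and 0 lower at an unadjusted p under 0.05, and the median log2 fold change was 1.21. Against WT clone 2 alone, Sqle differed by 1.86 and Hmgcs1 by 1.92 on the log2 scale, with adjusted p-values of 0.196 and 0.153. On the joint scale Sqle had 517 and 795 CPM in the EV populations with Ad-GFP and 86.1 and 115 CPM after Ad-Cre, and 396 and 496 CPM in the WT populations after Ad-Cre. On the same scale the libraries labelled WT had 163, 149.7 and 134 CPM and the WT(N48) clones 498, 565 and 553 CPM. The other clones had 201, 116 and 147 CPM of Sqle with MT194, 209, 201 and 199.9 CPM with MT486 and 358, 503 and 343 CPM with Δ-C60. Hmgcs1 was at 71.9, 78.0 and 82.9 CPM with MT194, 154, 155 and 131 CPM with MT486 and 345, 217 and 288 CPM with Δ-C60. Insig1 was at 35.7, 12.7 and 27.7 CPM with MT194, 35.8, 35.02 and 30.9 CPM with MT486 and 95.1, 84.2 and 93.8 CPM with Δ-C60. For these 3 genes all clones with a pBabe construct, WT(N48) and Δ-C60, were above all clones with a pLenti construct, those with high Nelfb included. Vector, construct and clone cannot be told apart here either. Reads that map to processed pseudogenes as well as to the gene were skipped by the authors, so the counts of genes with near-identical copies, such as Idi1, are uncertain.

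**Figure D3:**
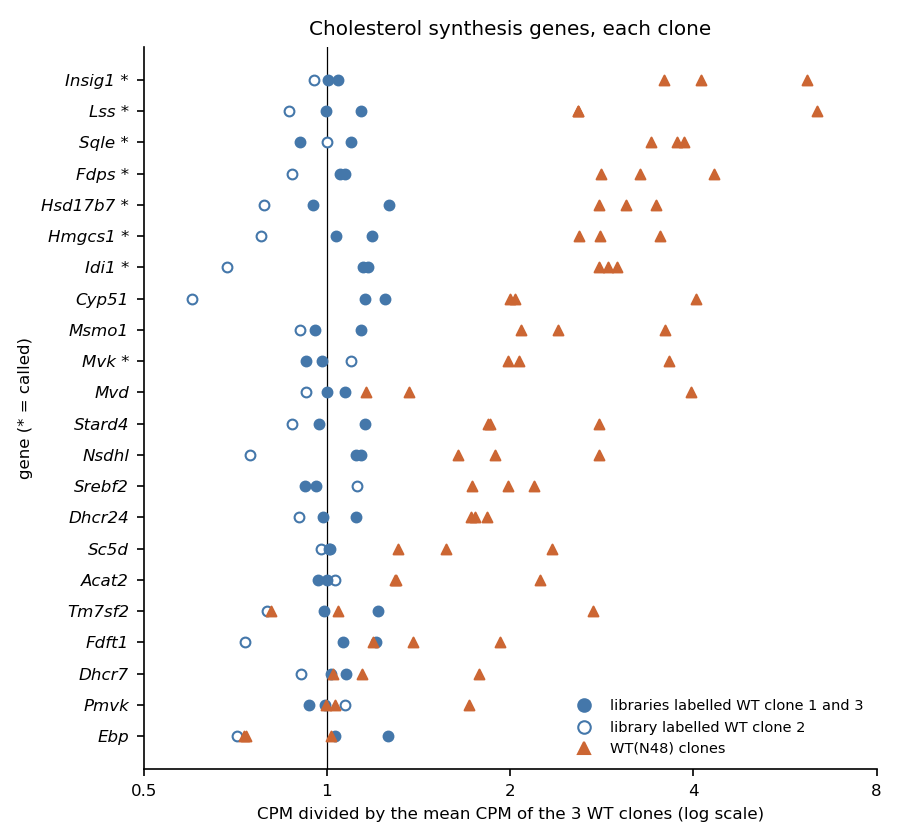
CPM of 22 genes of the cholesterol list in each of the 6 clones, divided by the mean of the 3 libraries labelled WT, on a log axis, with called genes starred. For the 8 starred genes all 3 WT(N48) clones (triangles) lie to the right of all 3 libraries labelled WT (circles, WT clone 2 open).

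Promoter stretches of 5 called members are shown, from RefSeq on GRCm38.p6, since a short motif stood in most promoters of this list. Each is the part of the window before the start, up to 160 bases, that holds no annotated exon. Capitals mark CCAAT on either strand (ATTGG when read from the other), the core of the site that NF-Y binds beside SREBP, and, in Hmgcs1, 1 match to the sterol element letters TCACNCCAC (or GTGGNGTGA on the other strand). The stretch for Hmgcs1 is chr13:119690191-119690350 on the plus strand and that for Mvk is chr5:114444109-114444268 on the plus strand, both ending at the base before the RefSeq start. That for Lss, chr10:76531428-76531587 on the plus strand, ends 17 bases before the start, and that for Hsd17b7, chr1:169969242-169969401 on the minus strand, 36 bases before it. The stretch for Insig1, chr5:28071203-28071362 on the plus strand, ends 49 bases before the start and holds neither motif. The rest of its promoter window, not printed here, holds CCAAT.
Hmgcs1: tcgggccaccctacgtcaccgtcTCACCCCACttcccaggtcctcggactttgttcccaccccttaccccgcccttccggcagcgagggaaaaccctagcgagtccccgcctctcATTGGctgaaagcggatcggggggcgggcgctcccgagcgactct
Mvk: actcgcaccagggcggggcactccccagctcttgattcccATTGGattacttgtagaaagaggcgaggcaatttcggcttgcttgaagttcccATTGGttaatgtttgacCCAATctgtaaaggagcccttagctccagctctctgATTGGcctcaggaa
Lss: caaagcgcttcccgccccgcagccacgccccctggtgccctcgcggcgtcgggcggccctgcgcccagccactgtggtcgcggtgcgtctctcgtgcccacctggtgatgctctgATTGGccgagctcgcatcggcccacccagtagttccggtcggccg
Hsd17b7: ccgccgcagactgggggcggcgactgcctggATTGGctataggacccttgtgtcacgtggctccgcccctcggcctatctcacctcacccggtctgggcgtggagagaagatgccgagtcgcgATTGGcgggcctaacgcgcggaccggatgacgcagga
Insig1: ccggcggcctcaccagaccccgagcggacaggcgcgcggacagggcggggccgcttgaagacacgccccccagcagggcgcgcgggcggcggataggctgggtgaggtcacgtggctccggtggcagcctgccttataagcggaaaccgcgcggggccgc

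Of the 25 genes, 17 had a promoter window, from 250 bases before to 50 after the start, and CCAAT stood on either strand in 15 of the 17 (88.2%). Of the 10 called members 6 had a window, and all 6 held CCAAT, that of Insig1 included. CCAAT stood in 37.9% of all 27025 windows, in 39.0% of the 9970 windows of tested genes and in 38.8% of the 85 windows of genes called higher. The letters TCACNCCAC were in 1 of the 17 windows and in 1.22% of all. A match is a description of letters and not a bound site.

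The 12 largest differences towards WT(N48), of those called that averaged 50 reads or more, were mostly genes with almost no RNA in the libraries labelled WT. Gpc3, on chromosome X from 52272426 to 52613950, encodes a glypican that restrains growth signals at the cell surface. It had no read in the 3 libraries labelled WT and 20.2, 8.84 and 15.4 CPM in the WT(N48) clones, at least 312-fold higher against a floor of 3 reads over the group. Cachd1, a cell surface protein related to calcium channel subunits, had no read in the libraries labelled WT either and 13.8, 10.9 and 8.97 CPM in WT(N48), at least 237-fold higher. The third called gene without a read in the libraries labelled WT was Cytl1, at 0.456, 1.25 and 1.30 CPM in WT(N48), named after its values were seen. Its call was lost with DESeq2 on the 15 clones and without any 1 library but WT(N48) clone 3. The adjusted p-values of Gpc3 and Cachd1 were 0.0217 and 0.0290.

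Gpc3 was at 0, 0 and 0 CPM with MT194, 0, 0 and 0 CPM with MT486 and 0.0401, 0.749 and 0.444 CPM with Δ-C60. WT(N48) clones were thus above all 12 other clones for this gene. On the joint scale the EV populations with Ad-GFP had 17.7 and 22.4 CPM of Gpc3 and those after Ad-Cre 6.62 and 9.54 CPM, and the WT(N48) clones 19.3, 8.45 and 14.8 CPM. Cachd1 was at 49.8, 23.9 and 28.8 CPM with Δ-C60 and at 12.3 and 18.6 CPM in the EV populations with Ad-GFP.

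Plagl1, an imprinted zinc finger transcription factor on chromosome 10 from 13060504 to 13131694, had 2 reads in all 3 libraries labelled WT and 171, 176 and 73.1 CPM in WT(N48), a ratio of 4157 with a 95% counting interval of 1150.4 to 34329.6. Limch1, an activator of non-muscle myosin, had 1 read and 6.95, 10.1 and 6.69 CPM, a ratio of 491 (87.7 to 19421). Esr1, the estrogen receptor alpha, had 2 reads and 8.17, 5.75 and 1.82 CPM, a ratio of 152 (41.7 to 1259). Nkx2-5, a cardiac homeobox factor, had 3 reads and 1.78, 1.95 and 7.99 CPM, a ratio of 93.2 (31.6 to 455). These intervals cover counting error only and not the spread between clones. In MT194 clones Plagl1 was at 0, 137 and 0.200 CPM, so 1 clone had no read, as in WT clone 2, and another lay within the range of WT(N48). It was at 31.0, 28.2 and 11.7 CPM with MT486 and 137, 39.8 and 117 CPM with Δ-C60. On the joint scale it was at 82.1 and 77.2 CPM in the EV populations with Ad-GFP and 64.3 and 45.0 CPM after Ad-Cre, beside 163, 169 and 70.2 CPM in the WT(N48) clones, so the libraries labelled WT were lower than these populations too.

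Among genes with a few more reads in the libraries labelled WT, Lama2, a laminin chain of basement membranes, had 0.0515, 0.0415 and 0.101 CPM in the libraries labelled WT and 29.6, 19.7 and 6.38 CPM in the WT(N48) clones, a log2 fold change of 8.07 (SE 1.13, adjusted p = 0.00880). Npr3, the clearance receptor of natriuretic peptides, had 0.979, 0.249 and 1.52 CPM in the libraries labelled WT and 106, 79.7 and 144 CPM in the WT(N48) clones, a log2 fold change of 6.93 (SE 1.10, adjusted p = 0.0140). Wnt5a, a ligand of non-canonical Wnt signalling, had 0.721, 0.0830 and 0.254 CPM in the libraries labelled WT and 72.5, 78.3 and 13.3 CPM in the WT(N48) clones, a log2 fold change of 7.29 (SE 1.40, adjusted p = 0.0295). For Wnt5a and Lama2 WT(N48) clone 3 was the lowest of its group yet far above every library labelled WT. Aspn (asporin, a small matrix proteoglycan) had 0.412, 0.124 and 0.152 against 45.7, 28.9 and 3.89 CPM, Dkk3 (a Dickkopf family protein) 1.03, 7.92 and 0.203 against 154, 131 and 203 CPM and Cldn1 (a tight junction claudin) 0.206, 0.0830 and 0 against 7.71, 13.8 and 1.79 CPM. Lama2 was at 58.4, 8.13 and 52.1 CPM and Npr3 at 23.4, 83.2 and 311 CPM with Δ-C60, and neither exceeded 2.05 CPM in any MT194 or MT486 clone.

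The calls of Lama2 and Npr3 were lost only without WT clone 1 or without WT clone 3, among fits without 1 library. The call of Gpc3 was lost without WT clone 1 or 3 or WT(N48) clone 1 or 2, and that of Dkk3 without any of these or WT(N48) clone 3. The other genes of this group of 12 kept their call only without WT(N48) clone 3. Against WT clone 2 alone the log2 fold changes were 8.60 for Lama2, 8.74 for Npr3, 9.25 for Wnt5a and 7.63 for Aspn, and no adjusted p of the 12 passed.

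In the other direction, the 12 largest differences were led by Ednra, the endothelin A receptor on chromosome 8 from 77663031 to 77724464. It had 28.0, 12.1 and 9.89 CPM in the libraries labelled WT and 0.101, 0.550 and 0.245 CPM in the WT(N48) clones, a log2 fold change of -5.79 (SE 0.833, adjusted p = 0.00880). Ednra was at 24.4, 21.6 and 11.3 CPM with MT194 and 0.304, 0.197 and 1.10 CPM with MT486. With Δ-C60 it was at 0, 0.0749 and 0 CPM. Gja4, on chromosome 4 from 127311421 to 127314039, encodes a connexin of vascular gap junctions and had 15.4, 10.9 and 11.4 CPM in the libraries labelled WT and 0.304, 0.300 and 0.666 CPM in the WT(N48) clones, a log2 fold change of -4.84 (SE 0.479). Its adjusted p of 0.00170 was the smallest of all genes, and it was 0.0326 against WT clone 2 alone. Tgfa, a ligand of the EGF receptor, had 18.1, 21.1 and 16.2 CPM in the libraries labelled WT and 0.558, 2.15 and 1.93 CPM in the WT(N48) clones, a log2 fold change of -3.57 (SE 0.513, adjusted p = 0.00880).

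For Ednra, Gja4 and Tgfa each library labelled WT, clone 2 included, was well above each WT(N48) clone, and the calls held without any 1 library. Adamts2, which trims procollagen, had 107, 33.4 and 50.7 against 1.42, 6.35 and 0.385 CPM. Sntb1 (a syntrophin of the dystrophin complex) had 5.87, 2.78 and 9.28 against 0, 0 and 0.315 CPM and Esx1 (a homeobox gene of placenta and testis) 1.19, 4.44 and 10.6 against 0.101, 0.0999 and 0.210 CPM. Rnf180, a ubiquitin ligase, had 7.16, 7.47 and 8.73 against 0.0507, 0.04997 and 0.806 CPM. Kank4, Rnf180 and Cd1d1, an antigen presenter for lipids, had log2 fold changes of -4.79, -4.58 and -3.90. Kank4 had 27.5, 3.11 and 7.41 CPM in the libraries labelled WT, so clone 1 was the highest, and Cd1d1 had 10.6, 1.33 and 12.3 CPM there, with clone 2 the lowest. Against WT clone 2 alone the log2 fold change of Cd1d1 shrank to -1.32 and that of Kank4 to -2.79. The calls of Kank4, Cd1d1, Rnf180 and Sntb1 were lost without WT clone 1 or 3 or WT(N48) clone 1 or 2, those of Rnf180 and Sntb1 also without WT clone 2, that of Adamts2 without WT clone 1 or 3 or WT(N48) clone 1, and that of Esx1 without any 1 library. The remaining 3 of the 12, Psmb8, Nlrc5 and Ankrd1, belong to lists described in the next paragraphs.

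**Figure D4:**
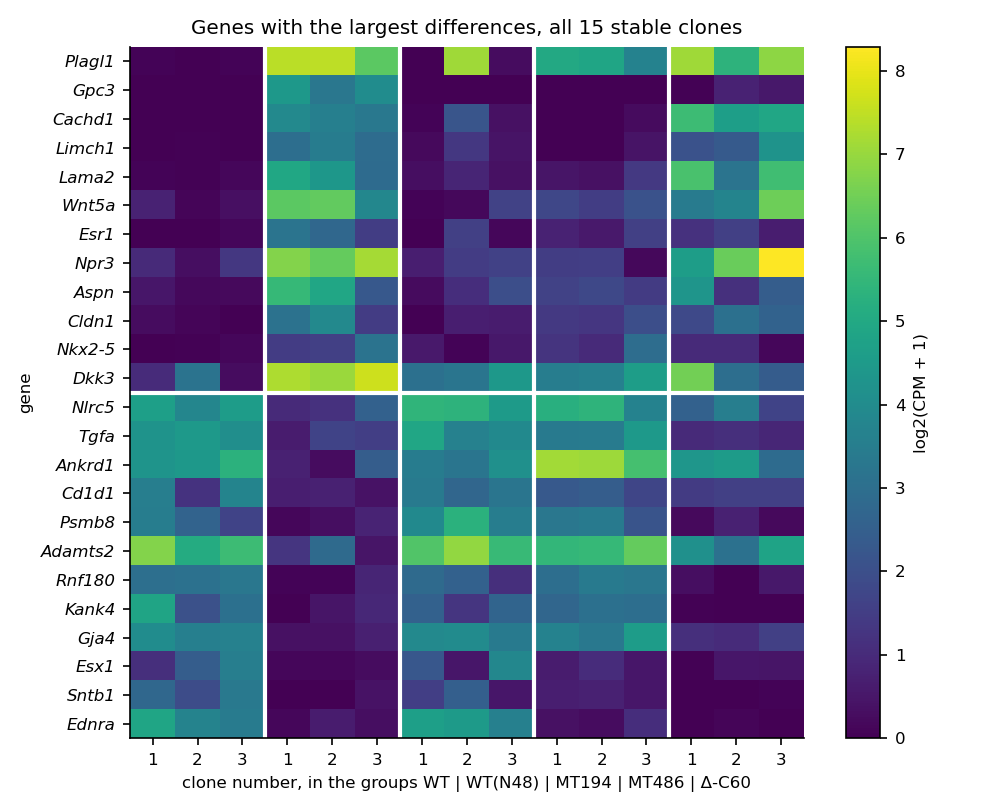
Levels as log2(CPM + 1) of the 12 genes with the largest differences in each direction, 1 row per gene and 1 column per clone, for all 15 stable clones in 5 groups. The upper 12 genes are low in all 3 libraries labelled WT and the lower 12 in the WT(N48) clones. The Δ-C60 columns resemble WT(N48) for genes such as Lama2 and Npr3, and for Ednra both the Δ-C60 and the MT486 columns do.

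Some genes of MHC class I antigen presentation were lower in WT(N48). These genes load peptides cut by the immunoproteasome onto class I molecules, under control of the activator Nlrc5 and of interferon. Of 15 tested genes 0 were called higher and 3 lower by edgeR, Psmb10, Psmb8 and Nlrc5, beside 0.529% lower among all genes, and DESeq2 called 9 (60%) lower, beside 2.03%. Of the 15, 10 (66.7%) were lower and 0 higher at an unadjusted p under 0.05, beside 10.3% and 10.7% of all genes, and the median log2 fold change was -2.08. Nlrc5 had 24.8, 13.1 and 22.7 CPM in the libraries labelled WT and 0.964, 1.25 and 4.94 CPM in the WT(N48) clones, a log2 fold change of -3.06 (SE 0.722, adjusted p = 0.0492). Psmb8 and Psmb10, immunoproteasome subunits, had 10.3, 5.19 and 2.18 against 0.101, 0.250 and 0.771 CPM and 36.7, 42.6 and 35.6 against 12.2, 18.2 and 21.97 CPM. The class I genes H2-K1 and H2-D1 had 219, 56.2 and 61.0 against 7.00, 16.8 and 26.9 CPM and 141, 42.2 and 65.1 against 12.3, 15.3 and 31.1 CPM, and their adjusted p-values were 0.0977 and 0.0741. H2 genes are near copies of each other, so their counts are uncertain.

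Tap1, a subunit of the peptide transporter, had 25.2, 10.9 and 6.70 against 0.862, 1.05 and 3.61 CPM with an adjusted p of 0.0669. B2m, the invariant light chain of class I, had 561, 267 and 297 against 397, 427 and 289 CPM, and its groups overlapped. For Nlrc5, H2-K1, H2-D1 and Tap1 WT clone 1 was the highest library, and in WT(N48) clone 3 was the highest of its group. The 3 calls were each lost without any of WT clones 1, 2 or 3 or WT(N48) clones 1 or 2. Without WT(N48) clone 3 there were 5 calls, beside 446 among the 13461 genes then tested. With WT clones 1 and 3 left out, 0 were called by edgeR, 6 were lower and 0 higher at an unadjusted p under 0.05, and the median was -1.30.

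Interferon-stimulated genes did not pass the test. Of 36 tested, 0 were called by edgeR in either direction. At an unadjusted p under 0.05, 12 (33.3%) were lower and 1 (2.78%) higher, beside 10.3% and 10.7% of all genes, and DESeq2 called 6 (16.7%) lower and 0 higher, beside 2.03% and 2.88%. The median was -1.79 with all libraries and 0.08 against WT clone 2 alone, where 0 of 38 genes had an unadjusted p under 0.05 by edgeR. Isg15, a ubiquitin-like modifier, had 17.7, 6.22 and 16.2 CPM in the libraries labelled WT and 0.456, 1.55 and 1.79 CPM in the WT(N48) clones. Ifit1, an RNA-binding antiviral protein, had 35.3, 7.14 and 41.6 against 0.659, 3.80 and 6.03 CPM and Bst2 (tetherin) 48.6, 11.0 and 21.8 against 3.85, 6.05 and 6.27 CPM. Ifit2 and Ddx58, at the highest mean CPM of the list, had 63.0, 46.3 and 60.1 against 58.1, 68.0 and 85.6 CPM and 49.2, 25.4 and 40.7 against 24.7, 46.8 and 36.5 CPM, and their groups overlapped. The summed level of the list was 499, 211 and 362 CPM in the libraries labelled WT, lowest in clone 2, and 202, 267 and 313 CPM in WT(N48).

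Of 39 matrix glycoprotein and proteoglycan genes 3 (7.69%) were called higher, Lama2, Aspn and Fbn1, and 0 lower, beside 0.938% higher and 0.529% lower among all genes. Of the 39, 10 (25.6%) were higher and 1 (2.56%) lower at an unadjusted p under 0.05, beside 10.7% and 10.3% of all genes, and DESeq2 also called 10 higher and 1 lower, beside 2.88% and 2.03%. Without WT clones 1 and 3 edgeR called 0 of them, and 7 were higher and 0 lower at an unadjusted p under 0.05. Fbn1, the fibrillin of elastic microfibrils and a fibroblast marker, had 89.5, 108 and 68.5 CPM in the libraries labelled WT and 322, 232 and 209 CPM in the WT(N48) clones, a log2 fold change of 1.52 (SE 0.317, adjusted p = 0.0337). The call of Fbn1 was lost without any of WT clones 1, 2 or 3 or WT(N48) clones 1 or 2, and it differed from WT clone 2 alone by 1.21. Fn1 had 3729, 3771 and 2506 against 11072, 8521 and 5845 CPM, with all WT(N48) clones above all libraries labelled WT, a log2 fold change of 1.35 and an adjusted p of 0.107. Among 24 collagens 0 were called by edgeR, 9 were higher and 0 lower at an unadjusted p under 0.05, DESeq2 called 6 higher and 0 lower, and the median log2 fold change was 0.80. The 9 were 37.5% of the collagens. Without WT clone 2, and likewise without WT(N48) clone 3, edgeR called 1 collagen, beside 77 and 446 of all genes. Col1a2, a chain of type I collagen, had 1113, 1036 and 638 against 3131, 2826 and 2454 CPM and Col1a1 3143, 1896 and 1491 against 4393, 3737 and 3745 CPM, with adjusted p-values of 0.0883 and 0.186. For both, all WT(N48) clones were above all libraries labelled WT, and against WT clone 2 alone the differences were 1.42 and 1.04.

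Some contractile genes differed widely between the WT(N48) clones. Acta2, smooth muscle actin, had 51.7, 8.88 and 35.7 CPM in the libraries labelled WT and 1435, 768 and 3.398 CPM in the WT(N48) clones, and Tagln, an actin-bundling protein, 28.5, 77.6 and 43.6 against 683, 258 and 49.99 CPM. WT(N48) clones 1 and 2 were high, and for Acta2 clone 3 was below every library labelled WT. Cnn1, a calponin, had 6.90, 5.14 and 2.94 against 53.2, 35.9 and 3.36 CPM and Actg2 2.42, 0.871 and 1.27 against 107, 61.1 and 0.315 CPM, again with WT(N48) clones 1 and 2 high and clone 3 low. WT(N48) clone 3 was the lowest WT(N48) clone for 15 of the 18 contractile genes tested, beside 41.2% of all genes. The other 3 were Cnn2, a broadly expressed calponin, Mylk, the myosin light chain kinase, and Tpm1, a tropomyosin, with 643, 414 and 447, 6.49, 11.8 and 8.34 and 1548, 1276 and 2003 CPM in the WT(N48) clones. Of the 18 genes 0 were called by edgeR, and the median was 1.20. At an unadjusted p under 0.05, 9 (50%) were higher and 0 lower, beside 10.7% and 10.3% of all genes. DESeq2 called 4 (22.2%) higher and 0 lower, beside 2.88% and 2.03% of all genes. Without WT(N48) clone 3 edgeR called 3 higher, beside 226 higher among the 13461 genes then tested. Without WT clones 1 and 3 it called 0 of the 19 genes then tested, 3 were higher and 0 lower at an unadjusted p under 0.05, and the log2 fold changes of Acta2, Tagln, Cnn1 and Actg2 were 6.35, 2.07, 2.56 and 5.98, with adjusted p-values of 0.697, 0.795, 0.738 and 0.669. The summed level of 12 markers of smooth muscle cells and pericytes was 227, 305 and 256 CPM in the libraries labelled WT and 2443, 1225 and 228 CPM in WT(N48), with Acta2 the highest, and Myh11, a defining gene of mature smooth muscle, did not pass the filter at 0.0515, 0.0830 and 0.101 and 0.152, 0.150 and 0.245 CPM. Their part in the other differences was not tested, and fewer cells of a kind cannot be told apart from less RNA per cell in bulk libraries.

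Markers of cartilage and bone cells summed to 331, 536 and 357 CPM in the libraries labelled WT and 2056, 976 and 596 CPM in WT(N48). Col2a1, the cartilage collagen, was the highest, at 47.9, 252 and 87.6 against 1588, 728 and 421 CPM, with an adjusted p of 0.209, and Sox9, its activator, had 139.7, 141 and 185 against 133, 107 and 73.8 CPM. Adipocyte markers summed to 41.5, 63.7 and 58.8 and 82.1, 137 and 105 CPM, and neural and Schwann cell markers to 282, 487 and 339.6 and 333, 289 and 214 CPM, with Plin4 and Nes the highest. Skeletal muscle markers did not exceed a sum of 1.62 CPM in any of the 6 clones, with 5 of 14 at 0. Of all these marker genes edgeR called Fbn1 and, in the neural list, Mbp, at 1.44, 0.830 and 1.17 against 7.61, 7.20 and 1.75 CPM, a call that was lost without any 1 library but WT(N48) clone 3. Of 14 fibroblast markers tested, 8 (57.1%) were higher and 0 lower at an unadjusted p under 0.05, beside 10.7% and 10.3% of all genes, and DESeq2 called 6 (42.9%) higher and 0 lower, beside 2.88% and 2.03%. For 7 cartilage and bone markers the counts were 3 and 1, with 2 called higher by DESeq2, for 8 of smooth muscle cells and pericytes 4 and 0, with 1 called higher, and for 9 of neural and Schwann cells 2 and 2, with 1 called higher and 1 lower. They were 2 and 0 of 4 adipocyte markers, with 0 called by DESeq2, and 1 and 0 of 4 endothelial markers, with 1 called higher. The 3 epithelial and 3 blood cell markers tested gave 0 and 0, and the 2 of skeletal muscle 0 and 1, with 0 called by DESeq2. Whether these markers bear on the other differences was not tested.

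Some ligands and receptors were called, in both directions. Among 44 growth factor and receptor kinase genes 1 (2.27%) was called higher and 2 (4.55%) lower by edgeR, beside 0.938% and 0.529% of all genes. DESeq2 called 6 (13.6%) higher and 4 (9.09%) lower, beside 2.88% and 2.03% of all genes. Fgfr2, a receptor of fibroblast growth factors, was higher at 66.3, 67.7 and 81.6 against 193.6, 199 and 144 CPM (log2 fold change 1.32, adjusted p = 0.0164), and the EGF receptor ligands Tgfa and Btc were lower. Btc, betacellulin, had 2.99, 3.15 and 6.09 against 0.456, 0.250 and 0.280 CPM (log2 fold change -3.62, adjusted p = 0.0199). Errfi1, which curbs the EGF receptor and is named for its abundance, was also lower, at 428, 279 and 318 CPM in the libraries labelled WT and 98.8, 144 and 147 CPM in the WT(N48) clones, a log2 fold change of -1.39. Among 25 G protein-coupled and vasoactive receptors, Npr3 and F2r (8%) were called higher and Ednra and Ptger4 (8%) lower by edgeR. For these receptors DESeq2 called 3 (12%) higher and 3 (12%) lower. F2r, the thrombin receptor, had 94.1, 109 and 90.6 against 333, 205 and 148 CPM, and Ptger4, a receptor of prostaglandin E, 45.6, 37.0 and 31.9 against 8.62, 9.19 and 19.9 CPM. In the cytokine list Il11 was lower, at 7.83, 16.01 and 7.00 against 2.08, 1.45 and 0.981 CPM (log2 fold change -2.78, adjusted p = 0.0295), 1 of 21 (4.76%). Il11 was at 1.81, 2.09 and 2.75 CPM with MT194 and 1.52, 1.18 and 2.12 CPM with MT486. With Δ-C60 it was at 2.17, 0.487 and 1.09 CPM, so the libraries labelled WT were above all other clones for this gene. On the joint scale it had 0.407 and 1.02 CPM in the EV populations with Ad-GFP and 0.833 and 0.783 CPM after Ad-Cre.

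Wnt genes numbered 30, of which Wnt5a and Dkk3 (6.67%) were called higher and 0 lower by edgeR, beside 0.938% and 0.529% of all genes. DESeq2 called 4 (13.3%) higher and 2 (6.67%) lower, beside 2.88% and 2.03% of all genes. Of the 30, 9 (30%) were higher and 3 (10%) lower at an unadjusted p under 0.05, beside 10.7% and 10.3% of all genes, and without WT clones 1 and 3 the counts at that p were 4 and 2 of 32. Among 26 integrins and cadherins 2 (7.69%) were called higher and 0 lower. Itga11, a collagen receptor chain, was higher at 2.01, 3.11 and 1.73 against 47.3, 31.3 and 66.9 CPM (log2 fold change 4.402, adjusted p = 0.0259), as was Cdh17 at 1.75, 1.29 and 0.710 against 4.82, 4.90 and 11.4 CPM. Of 21 YAP/TEAD targets 1 (4.76%) was called, Ankrd1, lower at 18.7, 20.6 and 38.9 against 0.710, 0.200 and 4.41 CPM. Other targets of the same factors had values the other way. Ctgf had 42.4, 37.0 and 55.6 against 1508, 490.2 and 164 CPM and Cyr61 191, 273 and 271 against 1038, 621 and 473 CPM, with all WT(N48) clones above all libraries labelled WT and adjusted p-values of 0.0649 and 0.0646. At an unadjusted p under 0.05, 8 targets (38.1%) were higher and 1 (4.76%) lower.

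Without 1 library, the calls of Tgfa and Ednra held in all 6 fits and that of Npr3 was lost only without WT clone 1 or 3. Those of Fgfr2, F2r, Ptger4, Il11, Itga11, Ankrd1, Wnt5a and Errfi1 were lost without any of WT clones 1, 2 or 3 or WT(N48) clones 1 or 2, that of Btc without WT clone 1 or 3 or WT(N48) clone 1 or 2, that of Dkk3 without any 1 library but WT clone 2, and that of Cdh17 without any 1 library. Against WT clone 2 alone, each of these genes had the same sign, with log2 fold changes such as 1.38 for Fgfr2, -3.78 for Tgfa, -3.26 for Btc and 3.94 for Itga11.

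In further lists 1 or 2 members were called, beside 0.938% higher and 0.529% lower among all genes. Klf2 and Klf6, transcription factors of the immediate early list, were higher, at 4.07, 3.82 and 4.46 against 25.9, 13.9 and 19.4 CPM and 172, 152 and 209 against 615, 423 and 223 CPM, 2 of 23 (8.70%). Mdm2, the ubiquitin ligase that restrains p53, was higher at 32.3, 36.7 and 41.8 against 91.1, 77.4 and 56.5 CPM, 1 of 26 Trp53 targets (3.85%), of which 6 (23.1%) were higher and 1 (3.85%) lower at an unadjusted p under 0.05, beside 10.7% and 10.3% of all genes. Bcl2, the survival factor, had 17.3, 20.5 and 7.61 against 94.9, 61.3 and 33.8 CPM, 1 of 13 of its family (7.69%). Elovl6, an elongase of fatty acids, had 89.7, 116 and 93.2 against 202, 203 and 237 CPM, 1 of 13 fatty acid synthesis genes (7.69%). Pfkp, a phosphofructokinase of glycolysis, was lower at 101, 73.3 and 134 against 41.9, 39.3 and 46.2 CPM, 1 of 31 hypoxia and glycolysis genes (3.23%), of which 10 (32.3%) were lower and 0 higher at an unadjusted p under 0.05. Eya1, a developmental phosphatase and coactivator, had 18.2, 19.8 and 11.0 against 30.6, 67.1 and 43.8 CPM, 1 of 58 mesodermal and skeletal transcription factors (1.72%), a share near that of all genes. The log2 fold changes were 2.26 for Klf2, 1.24 for Klf6, 1.02 for Mdm2, 2.06 for Bcl2, 1.11 for Elovl6, -1.27 for Pfkp and 1.53 for Eya1. The call of Elovl6 was lost without WT clone 1 or 3, that of Pfkp also without WT(N48) clone 1 or 2, and those of the other 5 without any of these or WT clone 2. Against WT clone 2 alone they included -0.80 for Pfkp, 0.87 for Elovl6 and 2.35 for Klf2, and none was called.

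Among imprinted genes, which are expressed from 1 parental copy and control growth, 2 of 23 tested (8.70%) were called higher, Grb10 and Plagl1, and 0 lower, beside 0.938% and 0.529% of all genes. Grb10, an adaptor that restrains insulin signalling, had 1081, 1194 and 1189 CPM in the libraries labelled WT and 2242, 2127 and 3385 CPM in the WT(N48) clones, a log2 fold change of 1.16 (SE 0.234, adjusted p = 0.0308). Its call was lost without any 1 library, and against WT clone 2 alone the log2 fold change was 1.10. At an unadjusted p under 0.05, 9 (39.1%) were higher and 0 lower, beside 10.7% and 10.3% of all genes, DESeq2 called 7 (30.4%) higher and 0 lower, beside 2.88% and 2.03%, and the median log2 fold change was 1.16. Without WT clones 1 and 3 edgeR called 0, 5 were higher and 0 lower at that p, and the median was 2.52. Ndn, a growth suppressor of the Prader-Willi region, had 2.83, 0.0830 and 0 against 58.0, 75.1 and 63.5 CPM with an adjusted p of 0.0755.

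Other imprinted genes differed between the WT(N48) clones. At the locus that yields Dlk1 from the paternal and Meg3 and Rian from the maternal copy, clones 1 and 2 had 17.8 and 12.2 CPM of Meg3 and 33.9 and 25.1 CPM of Rian, where clone 3 had 0.245 and 0.771 CPM. Dlk1 was at 0.203, 0.450 and 27.4 CPM in these clones, and all 3 genes were under 0.3 CPM in the libraries labelled WT. H19 was at 10.5, 10.9 and 235 CPM, Igf2 at 6.59, 7.64 and 414 CPM and Zim1 at 0.913, 0.400 and 28.4 CPM in WT(N48), so clone 3 was the highest for each. In the libraries labelled WT, Igf2 was at 367, 42.9 and 64.1 CPM and H19 at 3.14, 2.12 and 1.07 CPM.

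The called genes with the highest mean CPM were taken in each direction. Besides Grb10, Sqle and Klf6, those higher in WT(N48) were Sdpr, a protein of caveolae, at 63.0, 114 and 88.7 against 1232, 632 and 285 CPM, Gsn (gelsolin, which severs actin) at 258, 223 and 305 against 911, 626 and 396 CPM and Asap1, a regulator of Arf GTPases, at 206, 234 and 173 against 542, 447 and 290.1 CPM. Sdpr ranged from 285 CPM in WT(N48) clone 3 to 1232 CPM in clone 1, a wider spread than among the libraries labelled WT. Besides Errfi1, those lower were Rasl11a at 255, 119 and 207 against 15.8, 43.7 and 63.3 CPM, 1700017B05Rik at 207, 219 and 207 against 107, 92.8 and 112 CPM, Rnf11 at 154, 169 and 219 against 75.8, 98.8 and 76.9 CPM, Noc2l at 157, 156 and 157 against 85.1, 84.3 and 64.8 CPM and Tinagl1 at 179, 143 and 196 against 30.7, 53.5 and 21.5 CPM. Tinagl1, a secreted matrix protein, had a log2 fold change of -2.29 (SE 0.273, adjusted p = 0.00486) and kept its call in all 6 fits without 1 library. The calls of Rnf11 and Noc2l were lost without any 1 library, that of Rasl11a without WT clone 1 or 3 or WT(N48) clone 1 or 2, and those of Sdpr, Gsn, Asap1, Errfi1 and 1700017B05Rik also without WT clone 2. Against WT clone 2 alone the log2 fold changes were 2.63 for Sdpr, 1.51 for Gsn, 0.84 for Asap1 and -2.04 for Tinagl1, with adjusted p-values of 0.576, 0.494, 0.578 and 0.153. Tinagl1, Rnf11, Noc2l and Errfi1 lie on chromosome 4.

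Many lists held no call by edgeR, and their counts at an unadjusted p under 0.05 stand beside 10.7% higher and 10.3% lower among all genes. For 73 genes of oxidative phosphorylation, 1 (1.37%) was higher and 6 (8.22%) lower at that p, for 23 of the citrate cycle 1 (4.35%) and 6 (26.1%), for 76 of the cytosolic ribosome 4 (5.26%) and 6 (7.89%) and for 30 of mitosis 1 (3.33%) and 1, and DESeq2 called 0 in each of these 4 lists. Of 40 DNA replication genes 0 were higher and 12 (30%) lower at that p, 0 were called by DESeq2, and the median log2 fold change was -0.21. Without WT clones 1 and 3, 0 were higher and 11 lower at that p and the median was -0.41. Mcm5 and Rrm1, at the highest mean CPM of that list, had 536, 855 and 559 against 342, 276 and 500.5 CPM and 489, 479 and 571 against 517, 432 and 421 CPM, and WT clone 2 was the highest of the 6 clones for Mcm5. With 18 ERK feedback genes the counts were 3 and 0, with 27 PI3K, AKT, RAF and ERK kinase genes 3 and 1, with 15 Hox genes 3 and 0, and DESeq2 called 0 in each. For 4 germline genes that DNA methylation keeps silent they were 0 and 0, also by DESeq2.

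For the remaining lists DESeq2 called 1 to 4 members, beside 2.88% higher and 2.03% lower among all genes, where 1 call is 2.56% of the largest of these lists and 10% of the smallest. The unadjusted counts of edgeR were 2 higher and 2 lower of 15 chemokine genes, with 2 called higher by DESeq2, and 6 and 2 of 30 TGF-beta and BMP genes, with 2 called higher and 1 lower. They were 2 and 0 of 10 Notch genes with 1 called higher, 2 and 1 of 39 axon guidance genes with 1 called lower, 1 and 6 of 29 NRF2 targets with 1 called lower, 6 and 0 of 26 ATF4 targets and serine synthesis genes with 2 called higher, and 3 and 1 of 20 cell cycle inhibitors and G1 cyclins with 1 called higher and 1 lower. Cxcl12, a chemokine of fibroblasts, had 499.5, 359 and 190.1 against 2039, 1406 and 2737 CPM, an adjusted p of 0.0837 by edgeR and of 0.00198 by DESeq2, and its groups did not overlap. Atf4, the stress response factor, had 336, 308 and 269 against 595, 539.6 and 422 CPM, a log2 fold change of 0.77 with an adjusted p of 0.0414, under the fold threshold. Among 21 metalloproteinases, Adamts proteases and TIMPs, 0 were called higher and 1 (4.76%) lower by edgeR, Adamts2, beside 0.938% and 0.529% of all genes, with 4 (19.05%) higher and 3 (14.3%) lower at an unadjusted p under 0.05, and DESeq2 called 2 higher and 2 lower.

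Genes were not spread evenly over chromosomes by direction. Of the tested genes 12729 could be placed by symbol in GENCODE M21. Of these, 0.943% were called higher and 0.542% lower. On chromosome 10, 24 of 615 genes (3.90%) were called higher and 1 (0.163%) lower, the median log2 fold change was 0.54 and 88.0% of the genes were above 0, beside 51.4% of all tested genes. On chromosome 1 the counts were 16 higher (2.23%) and 0 lower of 716, with a median of 0.40. Chromosome 8 had 1 higher (0.146%) and 9 lower (1.31%) of 687 with a median of -0.48 and 14.1% of the genes above 0. Chromosome 14 had a median of -0.34 with 2 higher (0.467%) and 3 lower (0.701%) of 428. On chromosome 4 the counts were 4 higher (0.517%) and 19 lower (2.46%) of 773, with a median of -0.37. The genes up to 90 Mb, a boundary chosen after the values were seen, had a median of -0.01 with 2 higher and 0 lower of 265, and those beyond it a median of -0.56 with 2 higher and 19 lower of 508. Without WT clones 1 and 3 the medians were 0.68 on chromosome 10, 0.38 on chromosome 1, -0.48 on chromosome 8, -0.05 on chromosome 14 and -0.31 on chromosome 4.

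The medians of each clone show where these differences lay, as the median deviation of a chromosome's genes from their mean over all 15 clones in log2(CPM + 1). For chromosome 10 the deviations were -0.39, -0.53 and -0.30 in the libraries labelled WT and 0.04, -0.001 and 0.31 in WT(N48). For chromosome 8 they were 0.21, 0.26 and 0.32 against -0.28, -0.38 and 0.01, so WT(N48) clone 3 lay apart from clones 1 and 2. For chromosome 4 beyond 90 Mb they were 0.19, 0.13 and 0.25 against -0.41, -0.25 and -0.38. For chromosome 1 they were -0.00316, -0.13 and -0.33 against 0.29, 0.22 and 0.18. The groups did not overlap in any of these 4 regions, and WT clone 2 lay with the other libraries labelled WT except for chromosome 14, with deviations of 0.32, -0.12 and 0.26 against -0.20, -0.18 and -0.17. Plagl1, Lama2, Esr1, Lss and Mdm2 lie on chromosome 10, Bcl2 and Eya1 on chromosome 1, Ednra, Nlrc5 and Psmb10 on chromosome 8 and Gja4, Kank4 and Tinagl1 on chromosome 4. What underlies these regional medians was not tested.

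**Figure D5:**
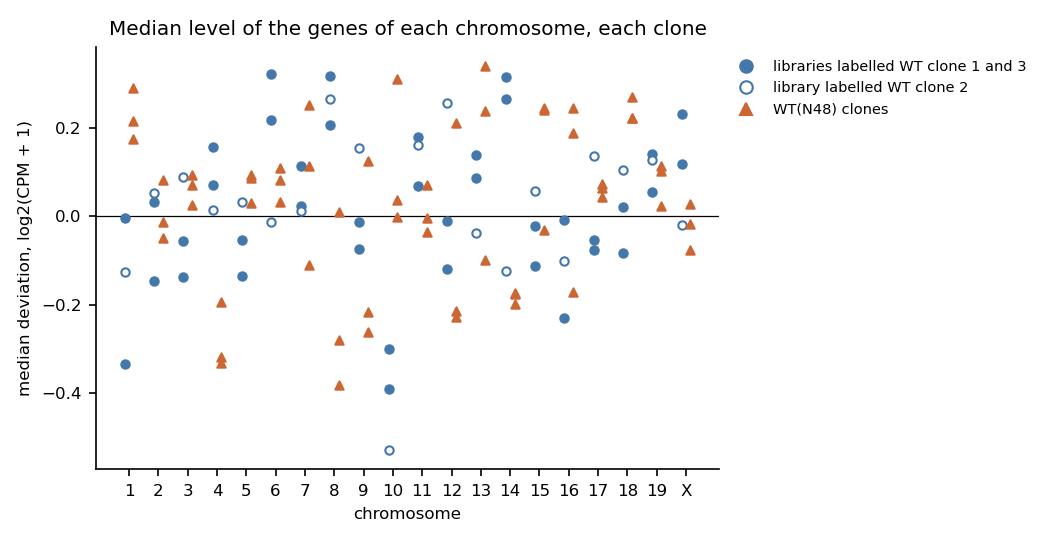
Median deviation of the genes of each chromosome from their mean over all 15 stable clones, in log2(CPM + 1), 1 point per clone for the libraries labelled WT (circles, WT clone 2 open) and the WT(N48) clones (triangles). The groups lie apart on chromosomes 1, 4, 8, 10 and 14, among others, and on chromosome 8 WT(N48) clone 3 lies at 0.01, between the other WT(N48) clones and the libraries labelled WT.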

How the data were processed

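RNA was sequenced from 6 stable MEF clones, 3 labelled WT(N48) and 3 labelled WT, after poly(A) selection with a stranded kit. Raw read counts per gene were deposited by the authors, who aligned reads to mm10 with Bowtie2, used SAMtools, skipped reads of low mapping quality and counted with HTSeq (versions, and the strand setting of the counting, are not given in the sources used here). Genes with near-identical copies and antisense genes are therefore uncertain. Reads on genes numbered 18413284 to 27816723 per library, and 9.82 to 10.9% of reads lay on no gene and stayed out of library sizes. In the EV and WT populations used for levels, 11.7 to 18.8% of reads lay on no gene.

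The counts of all 15 stable clones were fitted with edgeR 4.0.16 (limma 3.58.1, R 4.3.3), using filterByExpr, TMM, a mean per group and the robust quasi-likelihood test. A gene was called at a Benjamini-Hochberg adjusted p under 0.05 with an absolute log2 fold change over 1. All 15 clones were used so that the groups share an estimate of the spread, which is that between these clones. DESeq2 1.42.0, other scalings, filters and thresholds, a replicate block, and fits without single libraries were alternatives. The scripts were tested on simulated data. Summaries and plots used Python 3.11.15, pandas 2.3.3 and matplotlib 3.10.9. Gene positions are from GENCODE M21.

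Named were the NELF genes, Actb, Fasn and Cdkn1a, the 12 largest differences in each direction (mean of at least 50 reads, groups that did not overlap), the 6 most abundant called genes in each direction, up to 3 called members of each list in each direction or else 2 abundant ones, and 2 members of each marker list. Others were chosen after their values were seen. The clones and the lists were chosen with earlier results of these data known. Some members of the cholesterol list are not reported here but enter its counts.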

Additional observations from a re-analysis of the deposited data

How the results depend on the processing

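The calls (124 higher, 70 lower) became 649 with DESeq2 on the 15 clones and 827 on the 6 clones, 319 with edgeR on the 6 clones, 2 without WT clones 1 and 3, and 73 without MT486 clone 2, an alternative chosen after seeing the data. They stayed within 1.5 times with RLE scaling, library totals, other filters, other fold thresholds and without robust fitting. Fits without 1 library gave 10 to 446 calls, and 9 genes were called in all 6 of them. Of the called genes 63.9% were higher with TMM and 49.2% with library totals. The log2 fold change of Nelfb was 1.02 to 3.43 without 1 library and passed the test only without WT clone 2. With the clone number as a replicate block the calls were 84 (57 higher, 27 lower; 78 shared) and Nelfb was at 1.84. The numbers did not pair the clones, since deviations of same-numbered clones correlated at -0.11, -0.191 and -0.011 and no clone correlated best with its own number. Of the named genes not called, 8 changed sign in some fit. Without WT clones 1 and 3 the log2 fold change was 0.46 for B2m, 0.48 for Ddx58, 0.20 for Ebp, -0.25 for Fasn, 1.73 for Igf2 and -0.28 for Krt19. It was -0.062 for Fasn with library totals and 0.41 for Igf2 with the replicate block. Over the fits without 1 library it ranged from -0.23 to 0.38 for B2m, -0.34 to 0.11 for Ddx58, -1.35 to 0.082 for Egfl7, -0.16 to 0.15 for Fasn, -4.49 to 1.41 for Igf2, -0.57 to 0.66 for Krt19 and -0.11 to 0.067 for Nelfa. For all named genes, 1482 values over the alternatives kept direction and side of the threshold, 411 lost and 65 gained the call, and 21 changed sign. The cause of these changes was not tested. Library totals of the groups overlapped, and fold changes of genes with few or no reads in a group rest on very few counts.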

Other observations

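Il1rl1, the receptor of an alarmin cytokine and a gene of the ERK feedback list, had 224, 248 and 148 CPM in the libraries labelled WT and 326, 281 and 2049 CPM in the WT(N48) clones, highest in WT(N48) clone 3. It varied widely within the other groups of clones as well, at 264, 704 and 423 CPM with MT194, 616, 689 and 208 CPM with MT486 and 1155, 294 and 252 CPM with Δ-C60. Xist, which is transcribed from an inactive X chromosome, was present in all 6 clones, at 519, 1289 and 617 CPM in the libraries labelled WT and 1092, 1819.6 and 1691 CPM in WT(N48), and of the Y-linked genes Kdm5d, Ddx3y and Uty had no read in any of them and Eif2s3y did not exceed 0.0515 CPM.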
